A study of Homo sapiens with 23 samples.

Results

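ABC drug transporters are membrane pumps that move drugs and drug conjugates out of cells. The 10 genes examined here were taken as a list of symbols, ABCB1, ABCB4, ABCG2, ABCC1, ABCC2, ABCC3, ABCC4, ABCC5, ABCC6 and ABCC10, and looked up by NCBI Gene ID among the 21658 genes of the deposited expression table. The table holds 8 of the 10, and ABCB1 and ABCB4 were not analysed here. The libraries came from 4 established ovarian cancer cell lines, OV-90, Kuramochi, OVSAHO and EFO-21, each sequenced as stranded mRNA in its parental form and in a form made resistant to the CHK1 inhibitor prexasertib by long exposure to rising drug concentrations. There were 23 libraries in 8 groups, with 3 biological replicates per group except for parental OV-90, which had 2. Each resistant form is a derived culture of 1 line, with no word in the labels on whether it is a clone, and no cultures exposed to the solvent alone for the same time were used here, so time in culture and drug exposure cannot be told apart. Values are deposited log2 expression values, quantile normalized by the authors, and a level of one gene is not compared with that of another because the values are not known to be per length.

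ABC transporters couple the binding and hydrolysis of ATP to the movement of a substrate across a membrane. ABCB1 (P-glycoprotein), ABCG2 (breast cancer resistance protein) and ABCC1 (multidrug resistance protein) are the pumps most often linked to multidrug resistance of tumour cells, and the ABCC proteins carry many glutathione, glucuronide and sulfate conjugates. ABCB4 is a phospholipid transporter of the liver and stands next to ABCB1 on the chromosome.

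The 2 parental OV-90 libraries stood apart from each other. Their profiles correlated across genes at r = 0.952, while the lowest value within any other group was 0.971, and the median SD of a gene was 0.26 in parental OV-90 against 0.11 to 0.22 in the other groups. The responses of the members in OV-90 are therefore given with and without library 2, one of the pair, and for genes of other lists named as called there the size, the adjusted p or the call without it is given. A lone parental library is then assumed to vary like the resistant ones. The lowest 10% of the values in each library, up to a limit that lies between 1.70 and 1.87, are called the bottom, and a difference that involves a group lying there is not a measured fold change. In these cultures, fewer cells that express a gene and less RNA per cell cannot be told apart. Whether groups of libraries overlap is given as a description only, and the share of all genes without overlap was not worked out.

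**Figure D1:**
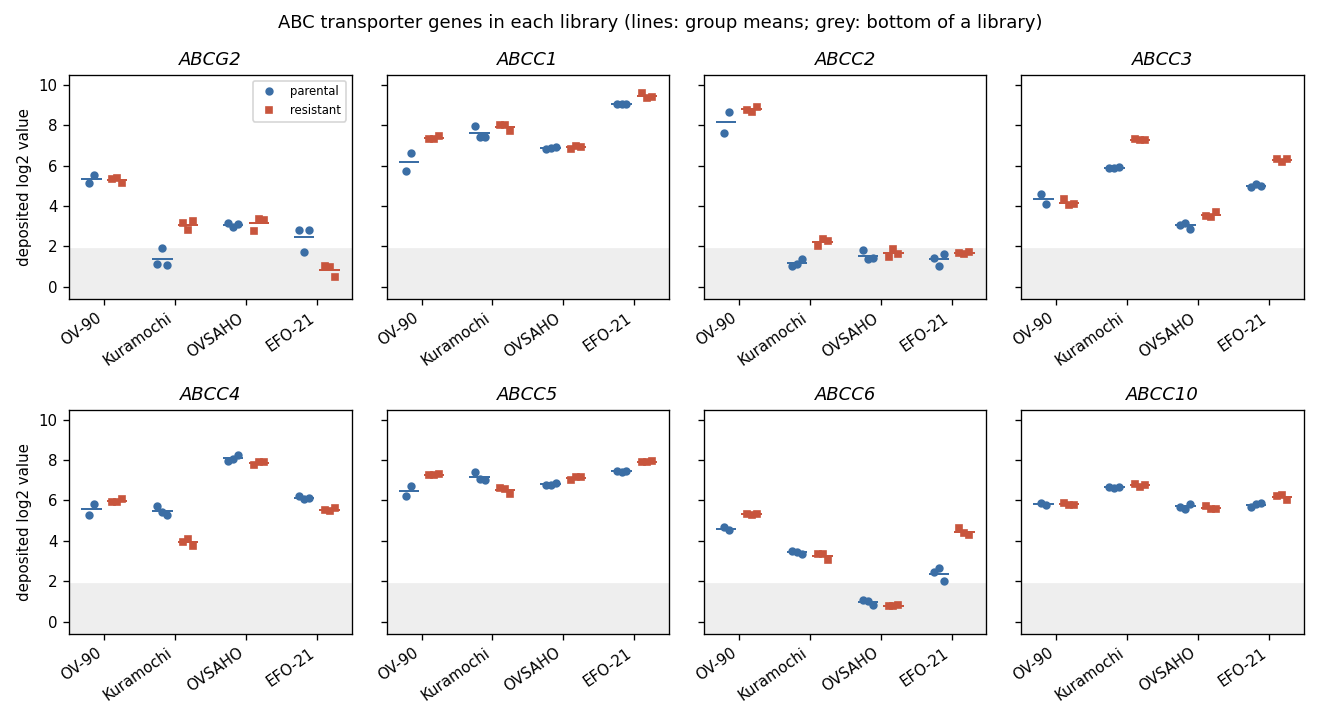
Deposited log2 value (y axis) of the 8 measured transporter genes in each of the 23 libraries by cell line (x axis), with parental libraries as circles, resistant ones as squares, short lines at group means and grey for the bottom of the libraries. ABCC2 lies at 7.63 or above in OV-90 and at 2.34 or below in the other lines, and ABCG2 moves up in Kuramochi and down in EFO-21.

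ABCG2 (NCBI Gene ID 9429), a transporter that works as a dimer, was at 5.12 and 5.53 in the parental OV-90 libraries and at 5.35, 5.39 and 5.15 in the resistant ones. The OV-90 groups overlapped. In Kuramochi the parental libraries were at 1.12, 1.94 and 1.07, with 2 of the 3 at the bottom, and the resistant ones at 3.14, 2.82 and 3.27. In EFO-21 the order was the opposite, with 2.82, 1.73 and 2.79 in parental cells, 1 of the 3 at the bottom, and 1.02, 0.96 and 0.47 in resistant cells, all 3 at the bottom. The groups did not overlap in either line. OVSAHO libraries were at 3.13, 2.97 and 3.12 before and 2.78, 3.37 and 3.30 after resistance, and they overlapped.

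By limma, ABCG2 rose by 1.70 in resistant Kuramochi (adjusted p = 0.00446, 95% interval 0.98 to 2.42) and fell by 1.63 in resistant EFO-21 (adjusted p = 0.0101, interval -2.47 to -0.79). A gene was called here at an adjusted p under 0.05 and a difference of at least 1 on the log2 scale, which is 2-fold. Because 1 side of each comparison lay mostly at the bottom, the sizes are differences of log2 values only. The responses of these 2 lines differed by 3.33 (SE 0.41, adjusted p = 2.30e-06 by limma in the fit of all 23 libraries). The difference was -0.03 in OV-90 (adjusted p = 0.921), or -0.23 without library 2, and 0.08 in OVSAHO (adjusted p = 0.823).

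Among parental lines ABCG2 was highest in OV-90, followed by OVSAHO, EFO-21 and Kuramochi. OV-90 exceeded OVSAHO by 2.25 (adjusted p = 0.000501, limma), or 2.46 without library 2. OVSAHO and EFO-21, neighbours in that order, differed by 0.63 (adjusted p = 0.138), which did not pass. With 1 library left out this difference ranged from 0.27 to 0.81 and did not pass either. EFO-21 exceeded Kuramochi by 1.07 (adjusted p = 0.0203), and this call was lost when any 1 of libraries 4, 6, 10 or 12 was left out, with differences of -0.95, -0.92, -0.89 and -0.90 for Kuramochi minus EFO-21.

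ABCC1 (NCBI Gene ID 4363), an exporter of glutathione conjugates and many anticancer drugs, was at 5.72 and 6.65 in parental OV-90 and at 7.34, 7.31 and 7.46 in resistant OV-90. The groups did not overlap, but the lower of the 2 parental libraries was library 2. ABCC1 was called higher in OV-90, by 1.18 (adjusted p = 0.0375, limma). Without library 2 the difference was 0.72 (adjusted p = 0.0197) and below the 2-fold limit, and without resistant library 13, 14 or 15 it was between 1.14 and 1.21 with adjusted p of 0.114, 0.102 and 0.123. Without library 3 it was 1.65 (adjusted p = 0.00308), so the call held in 1 of 5 such fits.

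In EFO-21, ABCC1 was at 9.05, 9.03 and 9.03 in parental and 9.61, 9.33 and 9.42 in resistant libraries, with no overlap and a difference of 0.41 (adjusted p = 0.00448) that is below 2-fold. Kuramochi libraries were at 7.95, 7.41 and 7.43 against 8.03, 8.04 and 7.69, and OVSAHO libraries at 6.80, 6.89 and 6.94 against 6.81, 6.97 and 6.95. Both pairs of groups overlapped and neither passed the test, though Kuramochi did so without library 4 (0.50, adjusted p = 0.0213). At baseline the order was EFO-21, Kuramochi, OVSAHO and OV-90. EFO-21 exceeded Kuramochi by 1.44 (adjusted p = 0.000183, limma), Kuramochi exceeded OVSAHO by 0.72 (adjusted p = 0.0140, or 0.0541 without library 4), and OV-90 was below OVSAHO with a difference of -0.69 (adjusted p = 0.0259). That last difference was -0.23 without library 2 (adjusted p = 0.309) and -1.15 without library 3, and its adjusted p was 0.0550 and 0.0630 without libraries 8 and 9. Parental OV-90 and Kuramochi differed by -1.41 (adjusted p = 0.000439), which became -0.95 without library 2, below 2-fold.

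ABCC2 (NCBI Gene ID 1244; chr10:101542397-101612351, plus strand, GRCh37 by GENCODE), an apical exporter of conjugates such as bilirubin glucuronide in hepatocytes, was the member with the widest span, 7.62 between its highest and lowest group means. It was at 7.63 and 8.67 in parental and 8.77, 8.68 and 8.92 in resistant OV-90. In parental Kuramochi it was at 1.03, 1.11 and 1.35, all at the bottom, and in resistant Kuramochi at 2.04, 2.34 and 2.27, all just above it. OVSAHO libraries lay between 1.39 and 1.88 and EFO-21 libraries between 1.03 and 1.74. All 5 OV-90 libraries lay above the other 18. Parental and resistant groups overlapped in OVSAHO and not in Kuramochi. They lay barely apart in OV-90 (8.667 against 8.681, adjusted p = 0.171, limma) and, within the bottom, in EFO-21 (1.629 against 1.634, adjusted p = 0.201).

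OV-90 stood above each of the other parental lines in ABCC2, with differences of 6.98, 6.61 and 6.78 against Kuramochi, OVSAHO and EFO-21 (adjusted p = 5.74e-08, 7.88e-08 and 7.22e-08, limma), and each was at least 7.12 without library 2. No pair of the other lines passed, with adjusted p of 0.318, 0.590 and 0.633. ABCC2 was called higher in resistant Kuramochi (1.05, adjusted p = 0.00510), a difference from the bottom that dropped to 0.98 without library 4 and 0.99 without library 17. In OV-90 the difference was 0.64 (adjusted p = 0.171), 0.12 without library 2 and 1.16 without library 3 (adjusted p = 0.00533). Of the 3 nearest measured genes on either side of ABCC2, DNMBP (1.64, adjusted p = 0.000474) and DNMBP-AS1 (1.81, adjusted p = 0.00373) were also called higher in Kuramochi.

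Upstream sequences are shown for ABCC2, high in OV-90 alone among these lines, ABCC4, which fell in Kuramochi, and ABCC6, which rose in EFO-21. RefSeq promoter entries (GRCh38.p14) existed for 6 of the 8 measured members and not for ABCC1 and ABCC3, and the 250 bases before the start were placed on GRCh37 by exact match, less any bases inside the annotated gene. They are written 5' to 3' on the strand of the gene, at chr10:101542147-101542396 (plus strand) for ABCC2, chr13:95953730-95953955 (minus strand) for ABCC4 and chr16:16317380-16317601 (minus strand) for ABCC6.
ABCC2: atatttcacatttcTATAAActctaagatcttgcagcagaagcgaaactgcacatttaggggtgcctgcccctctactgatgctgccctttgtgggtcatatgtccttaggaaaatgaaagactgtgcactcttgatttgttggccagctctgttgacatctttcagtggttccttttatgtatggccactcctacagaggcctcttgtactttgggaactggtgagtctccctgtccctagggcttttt
ABCC4: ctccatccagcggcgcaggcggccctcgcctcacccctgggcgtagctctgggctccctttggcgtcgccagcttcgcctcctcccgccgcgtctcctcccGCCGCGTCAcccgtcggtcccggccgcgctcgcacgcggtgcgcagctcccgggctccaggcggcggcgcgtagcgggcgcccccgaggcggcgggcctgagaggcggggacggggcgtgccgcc
ABCC6: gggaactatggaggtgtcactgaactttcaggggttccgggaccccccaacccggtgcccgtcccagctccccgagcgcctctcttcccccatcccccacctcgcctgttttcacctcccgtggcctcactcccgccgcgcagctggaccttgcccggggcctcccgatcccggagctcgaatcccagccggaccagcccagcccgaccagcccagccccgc
Capitals mark matches to any of 7 motifs searched on both strands. The ABCC2 stretch holds 1 match to the letters of the TATA box (TATAAA), 236 to 231 bases before the start and so not at the usual place of such a box close to the start. Of the 35116 promoter entries, 10.7% hold these letters in their 250 upstream bases. The ABCC4 stretch holds, on the opposite strand, 1 match to the core of the antioxidant response element (TGACNNNGC), 149 to 141 bases before the start, present in 10.9% of entries. The other motifs were the GC box (GGGCGG, in 42.6% of entries), the CCAAT box (CCAAT, in 32.0%), the AP-1 site (TGANTCA, in 6.57%), the E box (CACGTG, in 6.34%) and a short HNF1 site (GTTAAT, in 6.23%). The ABCC6 stretch holds none of the 7, no match overlaps another in these stretches, and a match of letters is not a binding site.

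Hepatocyte genes were high in the same line. Of 13 measured hepatocyte markers, 0 lay at the bottom in every parental OV-90 library, while 8, 8 and 7 did so in parental Kuramochi, OVSAHO and EFO-21, ALB, APOH, FGA, FGB and FGG among them in each. The mean of the list was 6.93 to 7.02 in parental OV-90 libraries, 1.82 to 2.33 in Kuramochi, 2.29 to 2.54 in OVSAHO and 2.11 to 2.21 in EFO-21. APOA1, picked from the list by its mean value over all libraries with no claim on amounts between genes, had parental means of 8.79, 7.90, 8.84 and 4.17 in that order. In resistant OV-90 the list mean was 6.46 to 6.56, with AHSG at the bottom, and 1 marker was called higher and 2 lower. Leukocyte and fibroblast marker lists also had their highest parental means in OV-90, at 6.06 to 6.49 and 5.75 to 6.93. In the other parental lines these lay between 2.73 and 5.40 and between 2.02 and 5.27. Whether hepatocyte-type expression has a part in the ABCC2 level was not tested.

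**Figure D2:**
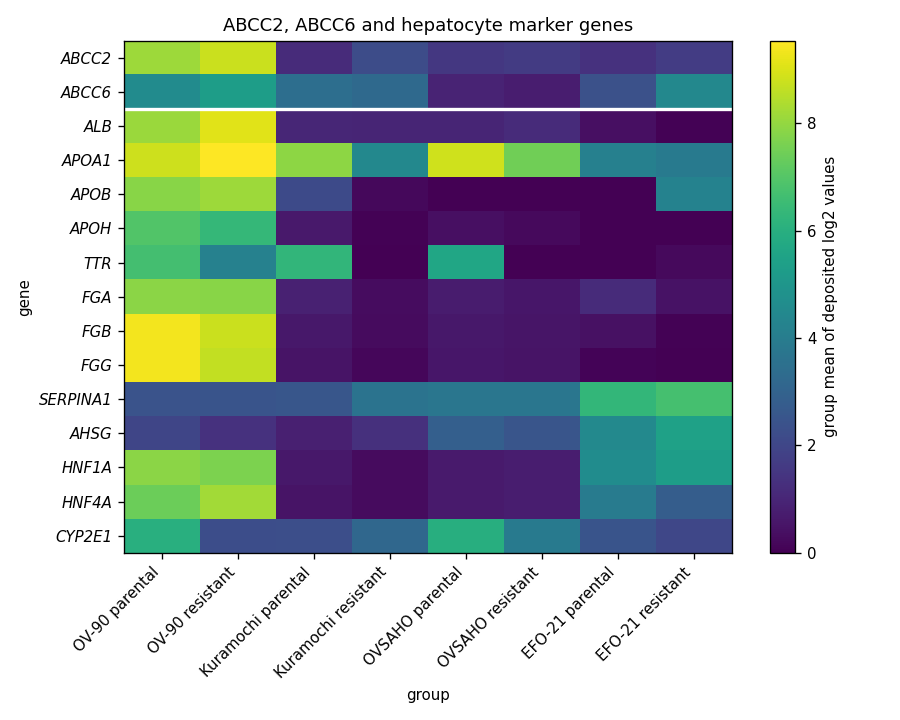
Group means of deposited log2 values (colour) for ABCC2, ABCC6 and 13 hepatocyte marker genes (y axis) in the 8 groups (x axis). ABCC2 and most of the markers are high in the 2 OV-90 columns.

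ABCC3 (NCBI Gene ID 8714; chr17:48712138-48769614, plus strand), a basolateral exporter of glucuronides, was at 5.90, 5.86 and 5.94 in parental and 7.30, 7.28 and 7.28 in resistant Kuramochi. EFO-21 libraries were at 4.94, 5.09 and 5.01 against 6.33, 6.17 and 6.33. In both lines each resistant library lay above each parental one. OVSAHO libraries were at 3.08, 3.17 and 2.87 against 3.49, 3.46 and 3.70, and OV-90 libraries at 4.59 and 4.11 against 4.35, 4.04 and 4.11. The OVSAHO groups did not overlap and the OV-90 groups did.

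ABCC3 rose by 1.39 in Kuramochi (2.61-fold, adjusted p = 5.83e-05, limma) and by 1.26 in EFO-21 (2.40-fold, adjusted p = 0.000220), and it was the only member called in the same direction in more than 1 line. These 2 responses differed by 0.12 (SE 0.18, adjusted p = 0.604). The difference in OVSAHO was 0.51 and did not pass (adjusted p = 0.0592, 95% interval 0.11 to 0.91). In OV-90 it was -0.18 (adjusted p = 0.571) and turned to 0.058 without library 2. The response of OV-90 minus that of Kuramochi was -1.56 (adjusted p = 1.89e-06), or -1.33 without library 2, and the response of Kuramochi exceeded that of OVSAHO by 0.87 (adjusted p = 0.000588). At baseline Kuramochi was highest, followed by EFO-21, OV-90 and OVSAHO. Each step in that order passed the adjusted p, with differences of 0.89 (adjusted p = 0.000811), -0.66 for OV-90 minus EFO-21 (adjusted p = 0.00830) and 1.31 (adjusted p = 0.000115). The middle step was -0.90 without library 2 and -0.43 without library 3, where it no longer passed (adjusted p = 0.0720), and the last was 1.07 without library 2. Of the 3 nearest measured genes on either side of ABCC3, CACNA1G (2.38, adjusted p = 9.40e-05) and CACNA1G-AS1 (1.63, adjusted p = 0.00380) were called higher in EFO-21, and CACNA1G was called lower in Kuramochi (-1.63, adjusted p = 0.00125).

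ABCC4 (NCBI Gene ID 10257) exports cyclic nucleotides and nucleoside monophosphate analogues. Kuramochi libraries were at 5.73, 5.45 and 5.30 in parental and 3.95, 4.08 and 3.74 in resistant cells, and the groups did not overlap in any of the 4 lines. ABCC4 fell by 1.57 there (0.337-fold, adjusted p = 0.000963, limma). In EFO-21 the values were 6.20, 6.06 and 6.11 against 5.52, 5.47 and 5.61, a difference of -0.59 that passed the adjusted p of 0.00261 but not the 2-fold limit. OVSAHO libraries were at 7.97, 8.04 and 8.28 against 7.75, 7.90 and 7.90 (-0.25, adjusted p = 0.0870), and OV-90 libraries at 5.30 and 5.84 against 5.92, 5.94 and 6.06 (0.41, adjusted p = 0.174), which was 0.14 without library 2 and 0.68 without library 3 (adjusted p = 0.0179). Parental OVSAHO exceeded EFO-21, next in the order, by 1.98 (adjusted p = 2.22e-06), OV-90 minus EFO-21 was -0.55 (adjusted p = 0.0200), and parental OV-90 and Kuramochi, the lowest, differed by 0.07 (adjusted p = 0.743). Of these, OV-90 minus EFO-21 was -0.28 without library 2 (adjusted p = 0.199) and -0.51 without library 10 (adjusted p = 0.0560), neither passing, and OV-90 minus Kuramochi was 0.34 without library 2 and -0.20 without library 3.

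Of the 6 genes next to ABCC4 on chromosome 13, 3 were also called lower in resistant Kuramochi. ABCC4 lies at chr13:95672089-95953729 on the minus strand (GRCh37, GENCODE). Of the 3 nearest measured genes on either side, GPR180 (-1.83, adjusted p = 0.000298, limma), DZIP1 (-1.93, adjusted p = 7.18e-05) and DNAJC3-DT (-2.51, adjusted p = 9.04e-05) were called lower. SOX21 (0.88, adjusted p = 0.427), BRD7P5 (-0.56, adjusted p = 0.0455) and CLDN10 (-0.27, adjusted p = 0.281) were not called. CLDN10 was called lower in EFO-21 (-2.28, adjusted p = 0.000229). Across all genes, 10.6% were called lower in resistant Kuramochi and 11.8% higher.

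ABCC5 (NCBI Gene ID 10057; chr3:183637722-183735727, minus strand), an exporter of cyclic nucleotides, passed the adjusted p in each of the 4 lines and the 2-fold limit in none. OV-90 libraries were at 6.21 and 6.73 against 7.25, 7.27 and 7.31, OVSAHO libraries at 6.75, 6.78 and 6.87 against 7.01, 7.18 and 7.16, and EFO-21 libraries at 7.47, 7.40 and 7.46 against 7.90, 7.91 and 7.94. Kuramochi libraries were at 7.39, 7.07 and 7.03 against 6.63, 6.56 and 6.33. The groups did not overlap in any line. The differences were 0.80, 0.32 and 0.47 in the first 3 named (adjusted p = 0.0308, 0.0158 and 0.000321, limma) and -0.66 in Kuramochi (adjusted p = 0.00929). In OV-90 it was 0.54 without library 2 and 1.07 without library 3, and without resistant library 13, 14 or 15 its adjusted p was 0.106, 0.0966 and 0.113. In OVSAHO the adjusted p was 0.0514, 0.0547, 0.0618 and 0.0584 without libraries 7, 8, 20 and 21. At baseline the order was EFO-21, Kuramochi, OVSAHO and OV-90. Neither Kuramochi minus EFO-21 (-0.28, adjusted p = 0.107) nor OV-90 minus OVSAHO (-0.33, adjusted p = 0.0897) passed, and Kuramochi exceeded OVSAHO by 0.36 (adjusted p = 0.0469), which no longer passed without library 4, 5, 7, 8 or 9 (adjusted p up to 0.154). Kuramochi minus EFO-21 passed without library 4 (-0.39, adjusted p = 0.0324), and OV-90 minus OVSAHO without library 3 (-0.59, adjusted p = 0.00533) but not without library 2 (-0.065). OV-90 minus EFO-21 was -0.97 (adjusted p = 0.000323) and went past 2-fold, to -1.23, without library 3, and was -0.71 without library 2. The response of Kuramochi was below that of EFO-21, with a difference of -1.13 (SE 0.16, adjusted p = 1.12e-05).

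ABCC6 (NCBI Gene ID 368), a transporter of liver and kidney whose loss causes pseudoxanthoma elasticum, was at 2.43, 2.66 and 1.99 in parental and 4.65, 4.41 and 4.29 in resistant EFO-21. ABCC6 rose by 2.09 there (4.25-fold, adjusted p = 0.000817, limma), the largest difference among the members in any line. OV-90 libraries were at 4.66 and 4.53 against 5.34, 5.29 and 5.32, a difference of 0.72 (adjusted p = 0.0296) below 2-fold whose adjusted p was 0.122, 0.105 and 0.118 without library 13, 14 or 15, and which was 0.79 without library 2. The groups did not overlap in any of the 4 lines. They lay barely apart in Kuramochi (3.360 against 3.349) and, within the bottom, in OVSAHO (0.802 against 0.799). Kuramochi libraries, at 3.48, 3.44 and 3.36 against 3.35, 3.35 and 3.04, differed by -0.19 (adjusted p = 0.454), and OVSAHO libraries lay at the bottom throughout, between 0.76 and 1.06. The response of EFO-21 exceeded that of Kuramochi, with a difference of -2.27 for Kuramochi minus EFO-21 (SE 0.25, adjusted p = 5.10e-07). At baseline the order was OV-90, Kuramochi, EFO-21 and OVSAHO, and the steps of 1.16, 1.07 and, for OVSAHO minus EFO-21, -1.40 all passed (adjusted p = 0.00242, 0.00216 and 0.000352), the first at 1.10 without library 2. The middle step was 0.88 without library 12, below 2-fold.

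ABCC6 values are uncertain, because the partial copies ABCC6P1 and ABCC6P2 are near-identical to it, and how reads were shared out among these copies is not known here. In EFO-21, ABCC6P1 differed by 1.58 (adjusted p = 0.0109, limma) and ABCC6P2 by 0.61 (adjusted p = 0.0698). ABCC6 (chr16:16243422-16317379, minus strand) and ABCC1 (chr16:16042995-16237114, plus strand) are neighbours. In EFO-21 the genes on the other side of ABCC6, NOMO3 (0.89, adjusted p = 3.45e-05), MIR3179-2 (0.90, adjusted p = 0.0246) and PKD1P1 (0.93, adjusted p = 0.000616), passed the adjusted p below 2-fold, while MYH11 (-0.26, adjusted p = 0.338) and CEP20 (0.07, adjusted p = 0.506), beyond ABCC1, did not pass and NDE1, further on that side, did (0.26, adjusted p = 0.00403). In OV-90, NOMO3 was called higher with ABCC1 (1.10, adjusted p = 0.0295), or 0.71 without library 2 and below 2-fold. NOMO3 and PKD1P1 also belong to families of near-identical copies.

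ABCG2 (chr4:89011302-89152780, minus strand) fell in EFO-21. Of the 3 nearest measured genes on either side, 0 were called lower there, where 7.15% of all genes were. HERC6 was called higher (1.13, adjusted p = 0.00149, limma), PPM1K differed by -0.53 (adjusted p = 0.00340), SPP1 by 0.83 (adjusted p = 3.70e-05) and HSP90AB3P by -0.29 (adjusted p = 0.00225), and PKD2 (-0.17, adjusted p = 0.0848) and HERC5 (-0.07, adjusted p = 0.559) did not pass. In Kuramochi, SPP1 (-4.71, adjusted p = 5.74e-06) and PPM1K (adjusted p = 0.00688) were called lower where ABCG2 was called higher, and in OVSAHO, where ABCG2 was not called, SPP1 was called higher (2.13, adjusted p = 0.000459). In OV-90, where ABCG2 was not called either, PKD2 was called higher (1.08, adjusted p = 0.0393), or 0.67 without library 2 and below 2-fold.

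**Figure D3:**
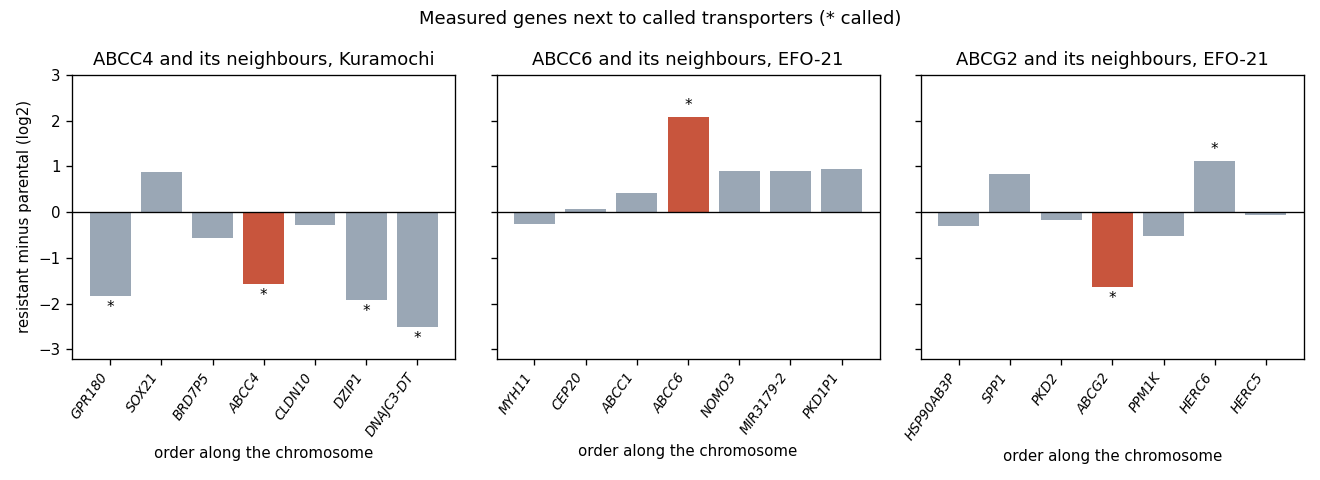
Difference between resistant and parental libraries on the log2 scale (y axis) for a called transporter (red) and the 3 nearest measured genes on either side (grey) in chromosome order (x axis), with asterisks for called genes. GPR180, DZIP1 and DNAJC3-DT were called lower with ABCC4 in Kuramochi (left), while in EFO-21 no neighbour of ABCC6 (middle) and, of those plotted, HERC6 alone beside ABCG2 (right) were called.

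ABCC10 (NCBI Gene ID 89845; chr6:43395104-43418165, plus strand), an exporter of taxanes and other lipophilic drugs, varied least, with a span of 1.11 over the group means. Kuramochi was highest, at 6.67, 6.62 and 6.66 in parental and 6.81, 6.66 and 6.77 in resistant libraries. The other parental libraries lay between 5.60 and 5.88. Parental Kuramochi exceeded OV-90, OVSAHO and EFO-21 by under 2-fold, with differences of -0.83 for OV-90 minus Kuramochi, 0.94 and 0.86 (adjusted p = 0.000146, 2.97e-05 and 4.83e-05, limma), the first -0.88 without library 2. The difference from OVSAHO went just past 2-fold without library 9. No pair of the other 3 lines passed, with adjusted p of 0.426, 0.796 and 0.554. With resistance ABCC10 differed in EFO-21 by 0.39 (adjusted p = 0.0199, or 0.0588, 0.0572 and 0.0659 without libraries 10, 22 and 23), below 2-fold and with no overlap of the groups, and did not pass in the other 3 lines, where OV-90 gave -0.01, or 0.041 without library 2. ABCC10 overlaps DLK2 on chromosome 6, which was called higher in OVSAHO (1.10, adjusted p = 0.00200). Of the 3 nearest measured genes on either side of ABCC10, RPS2P28 (-2.01, adjusted p = 0.00750) and LRRC73 (adjusted p = 0.00378) were called lower in Kuramochi, and LRRC73 also in OVSAHO (-1.05, adjusted p = 0.00968).

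In the genes next to ABCB1 and ABCB4 on chromosome 7, RUNDC3B, which overlaps ABCB1, was called higher in OV-90 (4.13, adjusted p = 0.00562, limma) and Kuramochi (2.62, adjusted p = 0.00106), in each case from a parental group wholly at the bottom. CROT was called higher in the same lines, by 1.19 (adjusted p = 0.0159) and 2.23 (adjusted p = 0.000340), and its parental Kuramochi libraries were also at the bottom. Without library 2 the OV-90 differences were 4.15 and 1.27. TP53TG1 was called higher in Kuramochi alone among the 4 lines (2.44, adjusted p = 0.000265). TMEM243, SLC25A40 and DBF4 were called in no line. Nothing about ABCB1 or ABCB4 follows from these values.

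Over the 4 lines, 8 of the 32 combinations of member and line were called, 6 higher and 2 lower. In Kuramochi 3 members were called higher and 1 lower, beside 11.8% and 10.6% of all genes. In EFO-21 it was 2 and 1, beside 7.11% and 7.15%, in OV-90 1 and 0, beside 9.50% and 6.56%, and in OVSAHO 0 and 0, beside 3.93% and 3.83%. With 1 library left out, called members in OV-90 ranged from 0 to 3 and all called genes there from 309 to 5975. In OVSAHO 1 of the 8 members passed the adjusted p of limma, beside 7203 of all 21658 genes, and 3 an unadjusted p under 0.05. The median absolute difference of the members was 0.52 in OV-90, 0.85 in Kuramochi, 0.15 in OVSAHO and 0.53 in EFO-21, against 0.55, 0.51, 0.28 and 0.36 over all genes.

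**Figure D4:**
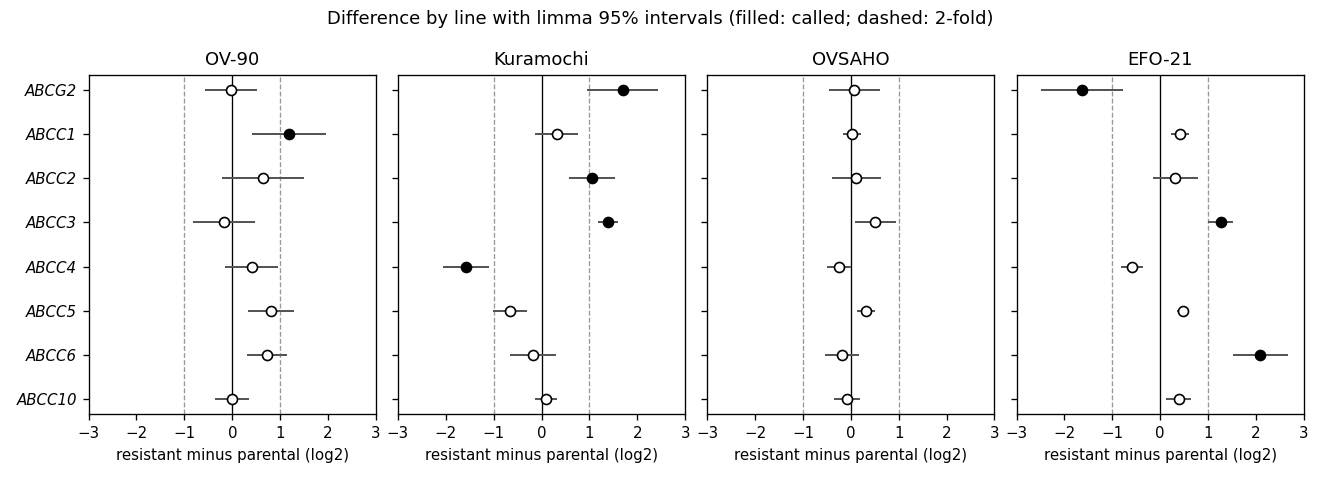
Difference between resistant and parental libraries on the log2 scale (x axis) with limma's 95% interval for the 8 measured members (y axis) in each line (panels), filled where called, with dashed lines at 2-fold. The filled points number 1 in OV-90, 4 in Kuramochi, 0 in OVSAHO and 3 in EFO-21.

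Between parental lines, 3 to 5 of the 8 members were called in a pair. With 1 library left out, the count for Kuramochi against EFO-21 ranged from 1 to 3. The count was 5 for OV-90 against Kuramochi (47.0% of all genes called in either direction), 5 for OV-90 against OVSAHO (48.1%), 4 for OV-90 against EFO-21 (50.2%), 4 for Kuramochi against OVSAHO (37.6%), 3 for Kuramochi against EFO-21 (41.3%) and 4 for OVSAHO against EFO-21 (44.2%). The response differed among lines for 7 of the 8 members, all but ABCC2 (adjusted p = 0.0728), by limma's F test on the 4 differences, and 75.1% of all genes passed the same test.

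By the pattern of the 8 group means, the 3 genes most like ABCC2 were DLGAP1-AS3 (r = 0.998), HYAL4 (r = 0.997) and a gene with no symbol in the annotation used (r = 0.997). Those most like ABCC6 were ARHGAP42 (r = 0.958), RHBDF1 (r = 0.953) and CAMK2D (r = 0.952), and those most like ABCG2 were ATF5 (r = 0.998), GPRC5A (r = 0.977) and another unnamed gene (r = 0.979). These Pearson coefficients are descriptions over 8 means in which parental and resistant forms share a line, and that of ABCC2 rests on OV-90 standing apart. ATF5 was picked as the closest to ABCG2 of 9270 genes over these same means, so its likeness follows from that choice. It had means of 5.45 and 6.39 in parental and resistant Kuramochi and 6.12 and 5.04 in EFO-21, where ABCG2 went in the same directions. In OVSAHO the ATF5 means were 6.49 and 6.38, while those of ABCG2 were 3.07 and 3.15. Among the members themselves, ABCC3 and ABCC4 had r = -0.89 over the 8 group means, the lowest of the 28 pairs.

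Of 28 other ABC genes measured, 2 were called higher and 2 lower in OV-90 and 2 and 5 in Kuramochi. In OVSAHO it was 0 and 3 and in EFO-21 3 and 4. Over all genes, to be set beside this and the following lists, it was 9.50% and 6.56% in OV-90. Those shares were 11.8% and 10.6% in Kuramochi, 3.93% and 3.83% in OVSAHO and 7.11% and 7.15% in EFO-21. The OV-90 counts depended on which parental library was kept, as given under how the results depend on the processing. ABCA9, 1 of the 2 called higher in OV-90 (1.10), was 0.91 without library 2 and 1.28 without library 3. ABCB5, another multidrug transporter of the ABCB1 branch, rose by 3.96 in EFO-21 (means 2.37, with 1 of 3 libraries at the bottom, and 6.34, adjusted p = 0.000326, limma) and fell by 1.59 in Kuramochi (6.89 and 5.30, adjusted p = 0.000367). ABCG4 also rose in EFO-21, by 2.16 from a group with 2 of 3 libraries at the bottom (adjusted p = 0.000289). The lipid transporters ABCA12 and ABCG1 fell in Kuramochi by 3.34 and 3.29 (adjusted p = 0.00205 and 4.91e-05), to values mostly at the bottom, and ABCG1 also by 1.56 to the bottom in EFO-21 (adjusted p = 0.000406). ABCA4 fell in Kuramochi by 2.78 (adjusted p = 1.49e-05). ABCA13 fell by 2.73 to the bottom in OVSAHO (adjusted p = 0.000298) and 2.42 in EFO-21 (adjusted p = 0.000112). In OV-90, ABCA1 rose by 1.74 (adjusted p = 0.0251), and ABCG1 and the peptide transporter TAP1 fell there too, ABCG1 by 1.52 (adjusted p = 0.0151 and 0.00983). Without library 2 these were 1.27 for ABCA1, -1.59 for ABCG1 and -1.43 for TAP1. ABCA1 was called lower in EFO-21 (adjusted p = 0.000388) and TAP1 higher in Kuramochi (1.19, adjusted p = 0.000594).

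Solute carriers bring many drugs into cells. Of 27 measured drug transporters outside the ABC family, namely solute carriers and the copper-exporting ATPases ATP7A and ATP7B, 7 were called higher and 1 lower in OV-90, 7 and 3 in Kuramochi, 0 and 0 in OVSAHO (limma, with 10 of the 27 at an unadjusted p under 0.05) and 5 and 0 in EFO-21. Their median difference was 0.46, 0.36, 0.00 and 0.21 in that order, against -0.06, -0.02, 0.00 and 0.01 over all genes. Some of the calls involve groups wholly at the bottom, such as SLCO4A1 in OV-90 (both groups) and SLCO2B1 and SLCO5A1 in EFO-21 (the parental group). In Kuramochi SLC47A1, a proton-coupled organic cation extruder, rose by 3.13 (adjusted p = 5.45e-05, limma) and SLC22A4 by 3.14 (adjusted p = 0.000129), and SLC47A2 rose by 4.63 from the bottom (adjusted p = 2.59e-05). The 7 in OV-90 include ATP7A (1.17, adjusted p = 0.0468, or 0.69 and below 2-fold without library 2) and ATP7B (1.58, adjusted p = 0.0225), whose call held without library 2. SLCO3A1 rose by 2.19 in OV-90 (adjusted p = 0.00920, or 2.48 without library 2), fell by 2.26 in Kuramochi (adjusted p = 2.82e-05) and differed by -0.85 in OVSAHO and 0.89 in EFO-21 (adjusted p = 0.000220 and 0.000205), below 2-fold. SLC22A2 rose by 1.93 in EFO-21 (adjusted p = 0.00867).

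Glutathione and conjugation enzymes supply the conjugates that ABCC pumps export. Of 31 measured genes, these enzymes and the cystine antiporter SLC7A11, 3 were called higher and 5 lower in OV-90, 2 and 9 in Kuramochi, 0 and 1 in OVSAHO and 1 and 4 in EFO-21, with medians of -0.31, -0.18, 0.00 and -0.02. In OV-90 these counts depended on which parental library was kept, as given under how the results depend on the processing. GSTM1 (-1.26) and GSTT2 (-1.14), among the 5 lower there, were -0.92 and -0.97 without library 2, below 2-fold. Without library 3 they were -1.60 and -1.30. SLC7A11 is among the 9 in Kuramochi (-1.52, adjusted p = 0.0202, limma). UGT2B7, a glucuronosyltransferase, fell by 1.81 in EFO-21 (adjusted p = 1.76e-05, limma) and by 4.29 to the bottom in Kuramochi (adjusted p = 0.000105), and by 1.27 in OV-90 (adjusted p = 0.0315, or 0.0866 without library 2). In OVSAHO it differed by -0.40 (adjusted p = 0.0149), below 2-fold. GCLC, a subunit of the enzyme that limits glutathione synthesis, rose by 1.44 in OV-90 (adjusted p = 0.0169), and GSTT1 fell by 1.81 (adjusted p = 0.0118). Both calls held without library 2 (adjusted p = 0.0119 and 0.0124).

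Of 32 measured regulators of transporter genes, 10 were called higher and 0 lower in OV-90, beside 9.50% and 6.56% of all genes. In Kuramochi it was 3 and 2, beside 11.8% and 10.6%. In OVSAHO it was 2 and 0, beside 3.93% and 3.83%, and in EFO-21 2 and 2, beside 7.11% and 7.15%. The medians were 0.58, -0.13, 0.15 and 0.02, against -0.06, -0.02, 0.00 and 0.01 over all genes. AHR, a ligand-activated factor that induces ABCG2 in some tissues, rose by 2.30 in OV-90 (adjusted p = 0.0155, limma), or 1.82 without library 2, where ABCG2 did not pass. AHR fell by 1.16 in EFO-21 (adjusted p = 0.000817), where ABCG2 was called lower too, and did not pass in Kuramochi (0.69, adjusted p = 0.134), where ABCG2 was called higher. PPARG rose by 2.58 from the bottom in Kuramochi (adjusted p = 0.000431), and MYCN fell by 2.26 there (adjusted p = 0.000793) and rose by 2.08 in EFO-21 (adjusted p = 0.000264) and 1.90 in OVSAHO (adjusted p = 0.00217). EPAS1 fell by 2.54 in EFO-21 (adjusted p = 9.82e-05) and rose by 1.25 in Kuramochi (adjusted p = 0.00272) and 1.06 in OV-90 (adjusted p = 0.0271), the latter being 0.74 and below 2-fold without library 2. Of 11 measured scaffold and vault genes, 2 and 0, 3 and 2, 0 and 1, and 0 and 1 were called higher and lower in the 4 lines in that order. PDZK1, a scaffold that binds ABCC2 and ABCC4, fell by 1.44 in OVSAHO (adjusted p = 0.00520) and 2.08 in EFO-21 (adjusted p = 0.000585).

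Markers of ovarian epithelial cancer were also looked at, and they do not settle the label of the lines. The mean of the list was 5.87 to 6.26 in parental OV-90 libraries and 7.86 to 8.10 in Kuramochi. It was 9.30 to 9.35 in OVSAHO and 8.17 to 8.24 in EFO-21. KRT18, picked from the 12 measured in the same way as APOA1, had parental means of 12.08, 12.31, 9.78 and 11.39 in OV-90, Kuramochi, OVSAHO and EFO-21, while MUC16 and MSLN lay at the bottom in OV-90 and WT1 in EFO-21. With resistance 7 of the 12 were called lower in Kuramochi and 6 in OVSAHO, EPCAM among them in each (-3.78 and -3.01, adjusted p = 3.34e-05 and 1.23e-05, limma), against 0 in OV-90 and EFO-21, where 4 and 12 of the 12 had an unadjusted p under 0.05 in either direction, beside 11 and 11 in Kuramochi and OVSAHO. Called higher were 0, 0 and 0 in OV-90, Kuramochi and OVSAHO and 1 in EFO-21, MSLN (2.10, adjusted p = 1.79e-05). Of 6 markers each, leukocyte genes were called higher and lower in 0 and 0, 1 and 1, 0 and 4, and 1 and 2 cases in the 4 lines, fibroblast genes in 0 and 0, 2 and 3, 2 and 3, and 1 and 0, and endothelial genes in 2 and 1, 1 and 2, 1 and 0, and 1 and 1. In OV-90, 4 of the leukocyte and 1 of the fibroblast genes had an unadjusted p under 0.05. Hepatocyte genes were called higher and lower in 1 and 3 cases in Kuramochi, 0 and 3 in OVSAHO and 1 and 1 in EFO-21. Their part in the transporter values was not tested.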

How the data were processed

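RNA of the 4 lines, before and after prexasertib resistance, was made into stranded mRNA libraries by the authors and sequenced. The submitters' processing notes name GRCh37 and hg19 as the genome build. The deposited values are log2 expression values, 1 per gene, from a robust linear model over exons (16448 genes) or a mean of log2 exon values (5210 genes, ABCG2 among the members), quantile normalized by the authors. Read counts are not used here, so the depth is unknown and precision rests on the spread between libraries. The columns name the line and its resistance and carry library numbers but no replicate numbers.

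Symbols were taken from RefSeq by NCBI Gene ID (20745 of 21658 matched), and positions from GENCODE on GRCh37. Resistant and parental libraries of each line were compared with limma (3.58.1, R 4.3.3), by lmFit, then eBayes (trend on), no filter and no pseudocount. Parental lines were compared in a fit of the 11 parental libraries, and differences of responses in a fit of all 23. P-values are two-sided and corrected by Benjamini-Hochberg across the 21658 genes. An exact permutation test of 3 against 3 libraries cannot give p below 0.1, nor 2 against 3 below 0.2, so none is reported. The members and lists were chosen with earlier results of these data known. Named genes are the members, up to 3 called genes per list and line with the largest differences and no overlap, the 3 nearest measured genes on either side of a member, and the 3 genes most like each of the 3 members of widest span, among genes with a span of at least 2 and a highest mean above the median. Examples were chosen from these after their values were seen. ABCB5, TAP1, SLCO3A1, SLC7A11, AHR and EPAS1 in Kuramochi, ABCA9, GSTM1, GSTT2, SLCO4A1, UGT2B7, ATP7A and EPAS1 in OV-90, SLCO3A1 and UGT2B7 in OVSAHO, ABCA1, ABCG1, SLCO3A1 and AHR in EFO-21 and the 2 pseudogenes fall outside the rule and were chosen after their values were seen.

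The fits were tested on simulated libraries. A first limit, set on the share of all changed genes recovered in every line, was not met in OV-90, where weakly expressed genes were often missed. The limits then used, set after that result, were on the sign and mean size of the estimates, on false calls and on recovery among the genes above the median level, and these were met. A change in a weakly expressed gene of OV-90 can therefore be missed. The alternatives were 1 fit of all libraries, no trend, a filter at the 25th percentile, recentred libraries, limits of 1.5-fold and of no fold, and leaving out each library.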

Additional observations from a re-analysis of the deposited data

Results flagged for a closer look

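The response, meaning the resistant minus parental difference, was not the same among the 4 lines for 7 of the 8 measured members by limma's F test. The adjusted p was 1.52e-05 for ABCG2, 0.00472 for ABCC1, 2.56e-06 for ABCC3, 8.61e-07 for ABCC4, 2.64e-06 for ABCC5, 5.54e-07 for ABCC6 and 0.0121 for ABCC10. Of all genes, 75.1% passed the same test. Called values of opposite sign were seen for ABCG2, higher in Kuramochi and lower in EFO-21.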

How the results depend on the processing

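No paired analysis was possible because the columns carry library numbers and not the replicate numbers of the labels. The filter at the 25th percentile removed ABCG2, ABCC2 and ABCC6 from all but the OV-90 response fit, and ABCC3 also from that of OVSAHO. Called members then numbered 2 in Kuramochi and 1 in EFO-21, and for parental lines 2, 2 and 1 for OV-90 against Kuramochi, OVSAHO and EFO-21 and 2 and 1 for Kuramochi against OVSAHO and EFO-21. All genes called were then 3095, 871 and 1762 in the Kuramochi, OVSAHO and EFO-21 responses, 5822 for parental Kuramochi against EFO-21 and 6304 for OVSAHO against EFO-21. At 1.5-fold, 3 members were called in OV-90 and 6 for parental Kuramochi against EFO-21, and 6195, 7687, 3169 and 5594 genes in the responses of OV-90, Kuramochi, OVSAHO and EFO-21. With no fold limit it was 3, 1 and 7 members in OV-90, OVSAHO and EFO-21, and 7791, 10158, 7203 and 10478 genes.

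With 1 library left out, called members in OV-90 ranged from 0 to 3 and all called genes from 309 to 5975, and called members for parental Kuramochi against EFO-21 from 1 to 3. Differences that changed sign, none of them called, ranged in OV-90 from -0.23 to 0.18 for ABCG2, -0.42 to 0.058 for ABCC3 and -0.069 to 0.041 for ABCC10, in OVSAHO from -0.035 to 0.26 for ABCG2, -0.0046 to 0.081 for ABCC1 and -0.0027 to 0.25 for ABCC2, and between parental lines from -0.20 to 0.34 for ABCC4 (OV-90 against Kuramochi) and -0.020 to 0.092 for ABCC10 (OV-90 against EFO-21). Members whose response differed among lines numbered 7 to 8. The cause was not tested. Without library 2, called genes in OV-90 numbered 1 higher and 2 lower among the 28 other ABC genes, 6 and 1 among the 27 drug transporters outside that family, 2 and 1 among the 31 glutathione and conjugation genes, 8 and 0 among the 32 regulators and 0 and 0 among the 11 scaffold and vault genes. Among markers it was 1 and 0 of 12 epithelial, 1 and 2 of 13 hepatocyte and, of 6 each, 1 and 0 leukocyte, 1 and 1 fibroblast and 1 and 1 endothelial genes. Without library 3, the other of the pair, the first 5 lists gave 6 and 3, 8 and 1, 3 and 7, 13 and 0, and 3 and 0, and the markers 0 and 1, 2 and 1, 0 and 2, 0 and 1, and 3 and 2. Neither library was shown to be the odd one. The called responses of ABCG2, ABCC3 and ABCC4 in Kuramochi and of ABCG2, ABCC3 and ABCC6 in EFO-21 held with any 1 library left out. Fits of all libraries together, without trend or with recentred libraries changed no sign or call of a member.

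Parental OV-90 has 2 libraries that stand apart, and without 1 of them the lone library is assumed to vary like the others. The depth is unknown, so precision rests on the spread between libraries, and differences that involve the bottom of the libraries are not measured fold changes. Quantile normalization gives each library the same distribution of values, so a shift in total RNA cannot be seen. Each resistant form was compared with its parental line at a single state, and the comparisons between parental lines share libraries. Values describe RNA and not transport.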
